A study of Mus musculus with 19 samples.

Results

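CD8 T cells were sorted from liver metastases of mice, and their RNA was sequenced to compare Vav1CreTet2KO mice, in which a Cre driven by the blood-cell gene Vav1 acts on floxed Tet2, with Tet2fl/fl mice, which carry the floxed allele and no Cre in the labels. The comparison held 6 of the 19 libraries of the series, 3 from Vav1CreTet2KO and 3 from Tet2fl/fl animals, and covered every gene of the CD8 table. All mice had received colorectal cancer cells with a Venus marker (the Venus-AKTPM/LOH line) into the spleen, and the cells were taken 30 days later. Because the Cre acts across blood lineages, the tumours of Vav1CreTet2KO mice hold T cells, dendritic cells and macrophages that may all lack Tet2. CD8 cells of 4 Cd4CreTet2KO mice, whose Cre acts in the T cell lineage, entered the same fit and are used below where the knockouts are compared. Libraries are named by genotype and replicate number, and values follow the order of replicates 1 to 3. The labels call the replicates biological and the library names carry an animal number each. Age, sex and strain background were not used here.

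The TET2 enzyme oxidises the methyl group of cytosine in DNA, a step towards removing the mark, and loss of TET2 in blood stem cells is a frequent cause of clonal haematopoiesis. CD8 T cells that meet tumour antigen for weeks can become exhausted, a state with sustained inhibitory receptors and the transcription factor TOX and with reduced function. Memory and stem-like CD8 T cells instead keep the interleukin 7 receptor and factors of quiescence, and they supply effector cells. By its title, the series asks how blood cells with mutant TET2 bear on T cell exhaustion and on metastasis.

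The 6 libraries held 8189300 to 12568865 reads on genes, as recovered from the RPKM values (read counts scaled by gene length and by library size). Vav1CreTet2KO replicate 1 stood apart from the other CD8 libraries. It had 10762 genes above 0, against 12613 to 16258 in the other CD8 libraries, and its median correlation across genes with them was 0.825, against 0.870 to 0.917. Ribosomal protein genes took 12.2% of its reads, against 5.24% to 9.25%, and mitochondrial genes 3.09%, against 1.32% to 1.85%. Of its recovered counts from 1 to 20, 50.6% were odd, against 13.1% to 25.3% in the other CD8 libraries, so recovered totals may not be in the same unit in all libraries. Counts of called genes are therefore also given without it. The CD8 identity held in all 6 libraries. Cd8a was at 103, 169 and 113 RPKM in Vav1CreTet2KO libraries, against 218, 179 and 229.8 RPKM in Tet2fl/fl libraries, and Cd8b1 at 161, 201 and 172 RPKM in Vav1CreTet2KO libraries, against 187, 156 and 198 RPKM in Tet2fl/fl libraries. Cd4 was at 0.0955, 1.59 and 0.674 RPKM in Vav1CreTet2KO libraries and listed at 0 in all Tet2fl/fl libraries. Every Cd8a level of Vav1CreTet2KO lay below every Tet2fl/fl level (log2 fold change -0.73 ± 0.25 SE, adjusted p = 0.173 by limma). Tet2 itself was at 6.28, 5.57 and 2.93 RPKM in Vav1CreTet2KO libraries, against 7.65, 8.06 and 6.57 RPKM in Tet2fl/fl libraries (log2 fold change -0.55 ± 0.33 SE, adjusted p = 0.404 by limma). Each Tet2 level of Vav1CreTet2KO lay below the lowest Tet2fl/fl level, but a level taken over all exons cannot show a deletion within the gene, so it does not check the genotype labels.

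The CD8 table held 25639 genes, of which 10224 reached at least 1 RPKM in at least 3 of the 10 CD8 libraries and were tested. Of these, 149 (1.46%) passed the limma test on log2(RPKM + 1) with Benjamini-Hochberg adjustment at 0.05. In Vav1CreTet2KO cells 103 fell (1.01%) and 46 rose (0.450%). By size, the falling genes began with Penk, Tnfrsf4, Nrgn, Tnfrsf9, Tff1 and Il1r2, and Tox, Tox2, Prf1 and Cx3cr1 were also among them. The rising genes began with H2-Ab1, Tyrobp and H2-Aa, and Il7r, Klf3 and Ly6c2 were also among them. Of the 103 falling genes, 16 reached 1 RPKM in the 3 Tet2fl/fl libraries and in no other, so they entered the test only through the group where they were high. Idi2, Cdkn2a and Ttn, given below, are among these, and 87 falling genes are not. No rising gene reached 1 RPKM in the Vav1CreTet2KO libraries only. Genes that reached it in their high group and in fewer than 3 other libraries also needed that group to enter. They were not counted, in either direction. The median change of the falling genes was 4.30-fold and that of the rising genes 6.06-fold, on the RPKM + 1 scale. In each of the 149 genes all Vav1CreTet2KO levels lay on one side of all Tet2fl/fl levels, which was also so for 12.9% of all tested genes in the falling and 6.92% in the rising direction. On reads recovered from the RPKM values, edgeR's quasi-likelihood test called 91 of 13483 (0.675%), 51 lower and 40 higher (0.378% and 0.297%). DESeq2's default filter can leave genes of low counts without an adjusted p. Of 17981 genes with a DESeq2 fold change it called 932 (5.18%), 435 lower and 497 higher (2.42% and 2.76%). The share of rising genes among the calls thus depended on the test. It also depended on the third genotype in the fit. With the Cd4CreTet2KO libraries left out, limma called 101 of 9450 genes, 51 lower and 50 higher. Of these, 79 were among the 149. A set of 45 genes, 36 lower and 9 higher, was called by limma, edgeR, DESeq2 and voom alike. These tests used the same libraries, so their overlap is not independent support. Idi2, Plekhg1 and Ttn in this set are among the 16 that entered the limma test only through the Tet2fl/fl group. Without Vav1CreTet2KO replicate 1 limma called 51 lower and 11 higher, and without Tet2fl/fl replicate 1 it called none (smallest adjusted p = 0.0703, with 1138 genes at an unadjusted p under 0.05, and 1770 with all libraries). The median log2 fold change of all tested genes was -0.11, against -0.03 after scaling by TMM factors and 0.00 in DESeq2. Changes of gene lists are read relative to it. Of all 10224 tested genes, 5975 had a negative and 4249 a positive log2 fold change, and counts of signs within lists are read beside these.

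**Figure D1:**
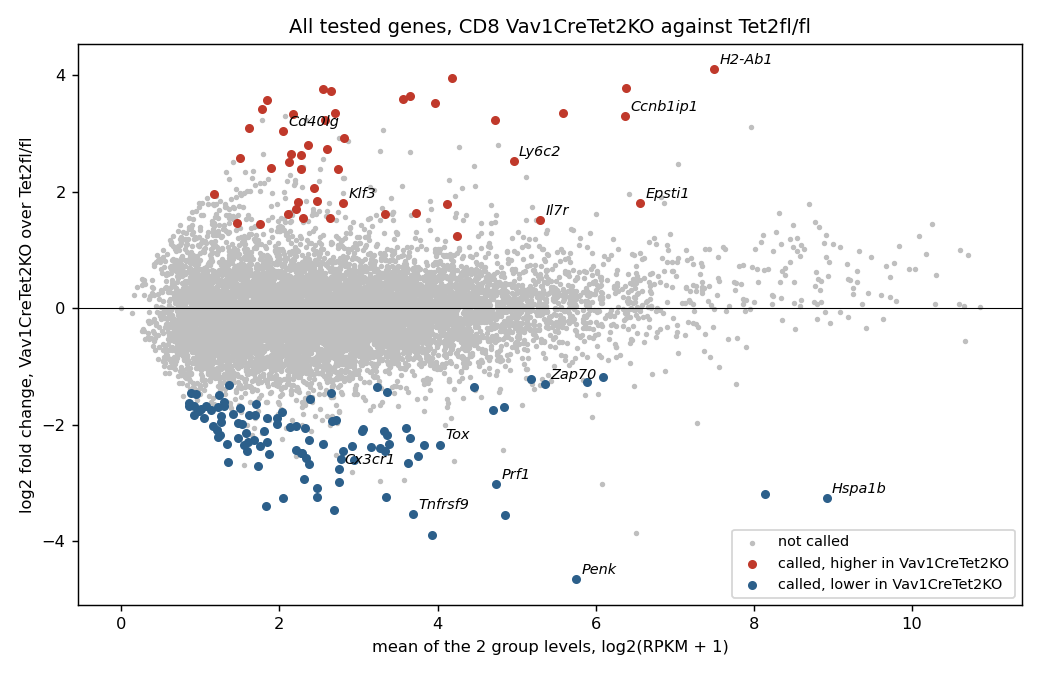
Log2 fold change of Vav1CreTet2KO over Tet2fl/fl (vertical axis) against the mean of both group levels in log2(RPKM + 1) (horizontal axis), 1 point per tested gene; the 46 called genes that were higher and the 103 that were lower in Vav1CreTet2KO are coloured. Penk and Hspa1b lie far below 0 at high levels, and H2-Ab1 lies at 4.09.

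The TOX factors, HMG-box proteins of which TOX drives the exhausted state, were lower in Vav1CreTet2KO cells. Of 3 tested members 2 fell and none rose. Tox (ENSMUSG00000041272) was at 2.60, 10.2 and 6.86 RPKM in Vav1CreTet2KO libraries, against 44.5, 25.1 and 33.7 RPKM in Tet2fl/fl libraries. Tox2 (ENSMUSG00000074607) was at 1.01, 1.91 and 0.334 RPKM in Vav1CreTet2KO libraries, against 10.5, 12.3 and 7.96 RPKM in Tet2fl/fl libraries. No Vav1CreTet2KO library reached the lowest Tet2fl/fl library in either gene, and the highest Vav1CreTet2KO level was that of replicate 2 in both. The log2 fold change was -2.34 for Tox (SE 0.38, limma adjusted p = 0.0121) and -2.49 for Tox2 (SE 0.36, limma adjusted p = 0.00980). The third tested member, Tox4, a broadly expressed relative, was at 2.45, 10.2 and 6.50 RPKM against 12.2, 8.20 and 12.1 RPKM and its groups overlapped (log2 fold change -0.82 ± 0.37 SE, adjusted p = 0.278 by limma).

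Of the Ikaros family, zinc-finger factors of lymphocyte identity, 1 of 5 tested members fell and the median log2 fold change was -0.89. Ikzf2, which encodes Helios, was at 0.230, 2.29 and 0.841 RPKM in Vav1CreTet2KO libraries, against 5.68, 6.27 and 6.79 RPKM in Tet2fl/fl libraries (log2 fold change -1.89 ± 0.41 SE, adjusted p = 0.0420 by limma). Ikzf4 (Eos) had a log2 fold change of -1.34 with an adjusted limma p of 0.0654 and Ikzf3 (Aiolos) of -0.89 with an adjusted limma p of 0.132, each with all Vav1CreTet2KO levels below all Tet2fl/fl levels. In the list of NFAT, IRF and terminal differentiation regulators 1 of 12 rose, none fell and the median was -0.03, which turned positive (0.07) after TMM scaling and was -0.27 without Vav1CreTet2KO replicate 1. The riser was Myb, a factor of stem-like T cells, at 10.5, 7.54 and 4.54 RPKM in Vav1CreTet2KO libraries, against 1.66, 2.42 and 1.38 RPKM in Tet2fl/fl libraries (log2 fold change 1.55 ± 0.34 SE, adjusted p = 0.0414 by limma). Nfatc1, a calcium-dependent factor of receptor signalling, had a log2 fold change of -1.02 with an adjusted limma p of 0.0897. Prdm1 (Blimp-1), a factor of terminal effector cells, had one of -1.40 with an adjusted limma p of 0.102 and Rbpj, the nuclear effector of Notch, one of -1.38 with an adjusted limma p of 0.110. These members did not pass, although their groups did not overlap.

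No member of the NR4A and EGR list, factors induced by receptor signalling, passed. Nr4a1 was at 156, 243 and 107 RPKM in Vav1CreTet2KO libraries, against 100.2, 94.1 and 80.8 RPKM in Tet2fl/fl libraries, so that every Vav1CreTet2KO library lay above every Tet2fl/fl library (log2 fold change 0.80 ± 0.49 SE, adjusted p = 0.419 by limma). Nr4a2 (log2 fold change 0.08, adjusted limma p 0.969) and Nr4a3 (1.13, adjusted limma p 0.467) overlapped between groups, with the lowest Vav1CreTet2KO levels in replicate 3. Egr2 was at 4.17, 4.86 and 2.70 RPKM against 15.9, 14.4 and 9.25 RPKM (log2 fold change -1.53 ± 0.43 SE, adjusted p = 0.0980 by limma). None of 11 tested AP-1 factors passed either, although Jun was at 92.2, 129 and 207 RPKM in Vav1CreTet2KO libraries, against 342, 370.1 and 291 RPKM in Tet2fl/fl libraries and its groups did not overlap (log2 fold change -1.29 ± 0.30 SE, adjusted p = 0.0539 by limma). Among 8 effector factors none passed. Eomes (T-box factor of memory and exhausted cells) was at 1.55, 0.636 and 3.97 RPKM against 5.88, 4.65 and 4.75 RPKM (limma adjusted p = 0.156) and Tbx21 (T-bet) at 36.8, 52.5 and 26.7 RPKM against 35.0, 31.3 and 43.4 RPKM, overlapping (limma adjusted p = 0.964).

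**Figure D2:**
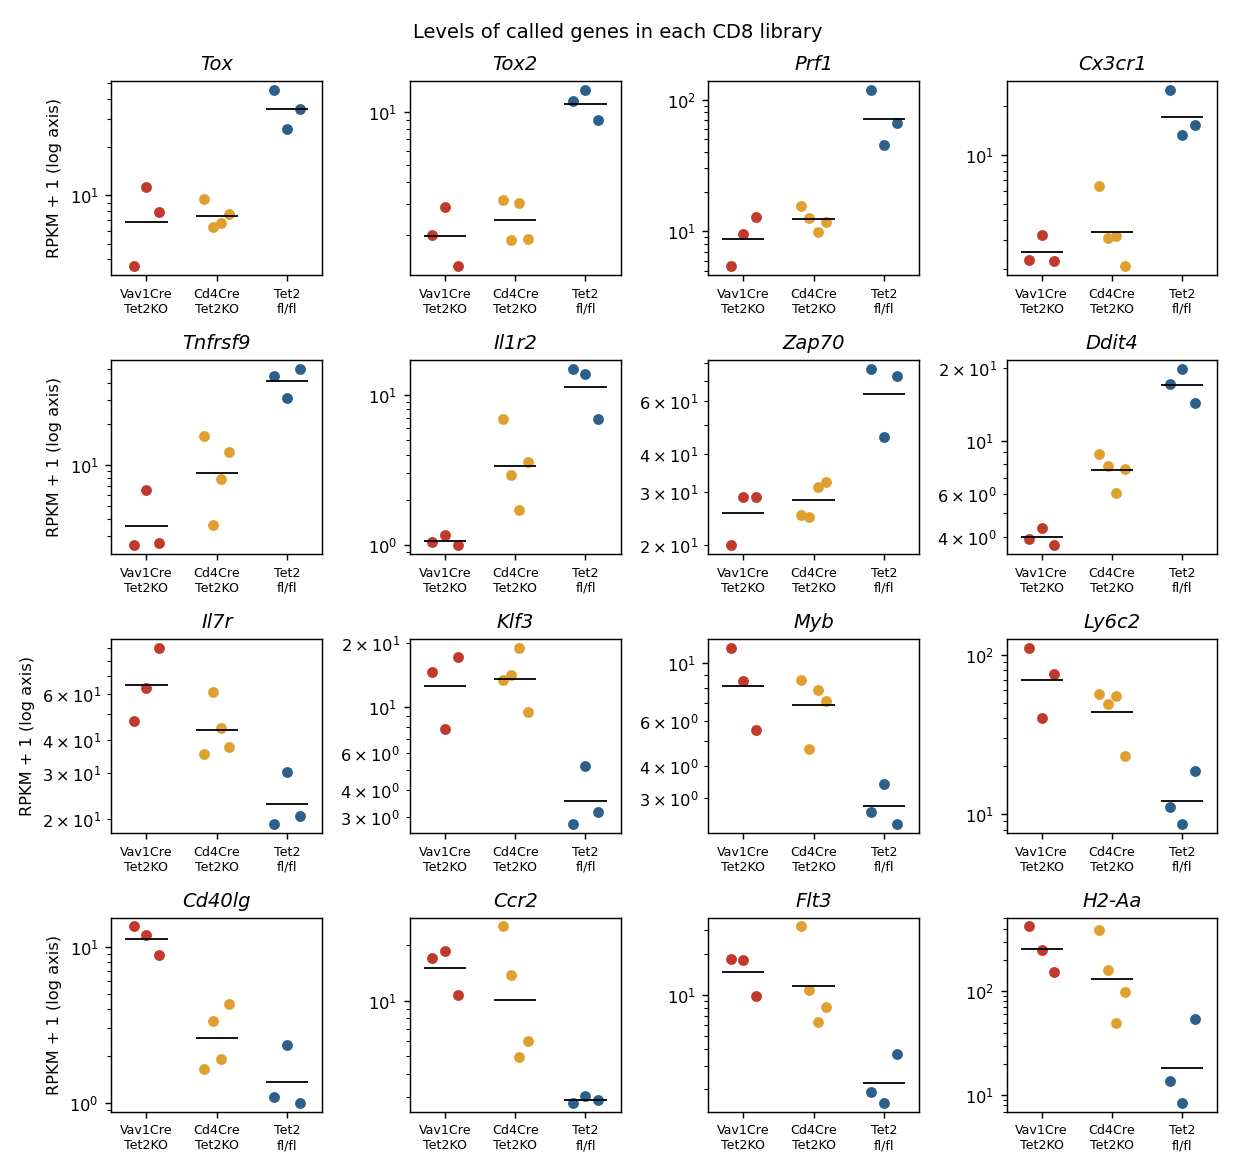
RPKM + 1 on a log axis for 16 called genes in the 10 CD8 libraries, 1 point per library, with the Vav1CreTet2KO, Cd4CreTet2KO and Tet2fl/fl groups from left to right and a bar at each group's mean on the log scale. The upper 8 genes lie lower in every Vav1CreTet2KO library than in any Tet2fl/fl library, and the lower 8 lie higher.

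Inhibitory receptors restrain T cells, and many are raised together in exhaustion. Of 13 tested members 1 fell and none rose, and the list median was -0.90. The log2 fold change was negative in 10 members, against 5975 of all 10224 tested genes. The gene that fell was Cd200r1, the receptor of CD200, at 2.60, 2.61 and 1.56 RPKM in Vav1CreTet2KO libraries, against 11.7, 9.60 and 12.7 RPKM in Tet2fl/fl libraries (log2 fold change -1.93 ± 0.30 SE, adjusted p = 0.0111 by limma), with a wide gap between the groups. Lag3, which binds MHC class II, was at 6.46, 27.5 and 4.38 RPKM in Vav1CreTet2KO libraries, against 81.7, 39.8 and 51.3 RPKM in Tet2fl/fl libraries, without overlap (log2 fold change -2.42 ± 0.56 SE, adjusted p = 0.0539 by limma). Pdcd1, which encodes PD-1, was at 27.5, 61.6 and 13.3 RPKM in Vav1CreTet2KO libraries, against 127, 91.5 and 105 RPKM in Tet2fl/fl libraries, and its highest Vav1CreTet2KO level, in replicate 2, stayed below the lowest Tet2fl/fl level (log2 fold change -1.87 ± 0.54 SE, adjusted p = 0.107 by limma). Tigit was at 48.3, 47.4 and 19.2 RPKM against 154, 103 and 63.8 RPKM (log2 fold change -1.48 ± 0.45 SE, adjusted p = 0.123 by limma) and Havcr2, which encodes TIM-3, at 22.3, 25.3 and 7.80 RPKM against 79.0, 43.7 and 46.7 RPKM (log2 fold change -1.66 ± 0.54 SE, adjusted p = 0.147 by limma), again with no overlap and no call. Ctla4 differed from these. It was at 119, 132 and 29.7 RPKM in Vav1CreTet2KO libraries, against 81.4, 71.1 and 53.7 RPKM in Tet2fl/fl libraries, with 2 Vav1CreTet2KO libraries above all Tet2fl/fl libraries and replicate 3 below them (log2 fold change 0.20 ± 0.61 SE, adjusted p = 0.896 by limma). Btla, an inhibitory receptor of resting lymphocytes, lay higher in every Vav1CreTet2KO library, at 8.69, 12.7 and 6.29 RPKM against 1.31, 1.99 and 4.24 RPKM (log2 fold change 1.58 ± 0.45 SE, adjusted p = 0.105 by limma). On recovered reads DESeq2 called Cd200r1, Lag3, Pdcd1, Tigit and Havcr2 lower and Btla and Lair1 higher, and edgeR called Cd200r1 alone. No member of the list of adenosine ectoenzymes and terminal surface genes passed, and Entpd1, which encodes CD39, was at 3.50, 10.6 and 5.16 RPKM against 15.5, 8.30 and 12.1 RPKM, overlapping (limma adjusted p = 0.356).

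Costimulatory receptors of the TNF receptor family, which activated T cells raise, included some of the steepest falls. Of 11 tested members 3 fell and none rose. The list median was -0.27, 0.09 in edgeR and -0.42 without Vav1CreTet2KO replicate 1, and 5 members had a positive log2 fold change. Tnfrsf9, which encodes 4-1BB, was at 1.57, 5.51 and 1.69 RPKM in Vav1CreTet2KO libraries, against 43.7, 30.0 and 49.5 RPKM in Tet2fl/fl libraries (log2 fold change -3.53 ± 0.51 SE, adjusted p = 0.00980 by limma). Tnfrsf4, which encodes OX40, was at 0.123, 15.0 and 0 RPKM in Vav1CreTet2KO libraries, against 43.9, 36.9 and 32.7 RPKM in Tet2fl/fl libraries (log2 fold change -3.88 ± 0.84 SE, adjusted p = 0.0414 by limma). Tnfrsf18, which encodes GITR, was at 17.9, 13.9 and 8.07 RPKM in Vav1CreTet2KO libraries, against 61.7, 36.7 and 40.1 RPKM in Tet2fl/fl libraries (log2 fold change -1.75 ± 0.34 SE, adjusted p = 0.0260 by limma). In all of these genes the Tet2fl/fl libraries were the higher ones without overlap, and for Tnfrsf4 the Vav1CreTet2KO levels were far apart, with replicate 2 alone above 1 RPKM. Cd27, a costimulatory receptor of less differentiated T cells, had a log2 fold change of -1.06 with an adjusted limma p of 0.116.

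Of 12 tested TNF family ligands, 2 fell, 1 rose and the median was -0.75, or -0.48 without Vav1CreTet2KO replicate 1. Tnfsf4, the ligand of OX40, was at 0, 0.896 and 0 RPKM in Vav1CreTet2KO libraries, against 11.5, 2.27 and 4.43 RPKM in Tet2fl/fl libraries (log2 fold change -2.29 ± 0.48 SE, adjusted p = 0.0366 by limma). Tnfsf9, the ligand of 4-1BB, was at 0.230, 1.45 and 2.03 RPKM in Vav1CreTet2KO libraries, against 8.70, 6.03 and 8.22 RPKM in Tet2fl/fl libraries (log2 fold change -2.03 ± 0.41 SE, adjusted p = 0.0302 by limma). Both ligands were thus lower alongside their receptors. The riser was Cd40lg, the CD40 ligand by which T cells license antigen-presenting cells, at 12.5, 10.9 and 7.82 RPKM in Vav1CreTet2KO libraries, against 0.0945, 1.35 and 0 RPKM in Tet2fl/fl libraries (log2 fold change 3.04 ± 0.43 SE, adjusted p = 0.00980 by limma). Cd70, the ligand of CD27, was listed at 0 in all Vav1CreTet2KO libraries and at 2.66, 3.90 and 0.693 RPKM in Tet2fl/fl libraries (limma adjusted p = 0.123). Tnfsf10, which encodes the death ligand TRAIL, was at 3.98, 17.3 and 7.82 RPKM against 32.2, 22.8 and 28.8 RPKM (limma adjusted p = 0.0567), and Tnf at 38.1, 28.4 and 30.9 RPKM against 24.7, 19.1 and 18.5 RPKM (limma adjusted p = 0.403). Among 13 CD28 and SLAM family receptors Crtam, a surface molecule of activated cytotoxic T cells, was the gene that fell, at 1.74, 4.91 and 2.88 RPKM in Vav1CreTet2KO libraries, against 15.9, 15.8 and 15.4 RPKM in Tet2fl/fl libraries (log2 fold change -2.07 ± 0.29 SE, adjusted p = 0.00980 by limma). Its Tet2fl/fl levels were nearly equal to one another. None of this list rose, and Slamf6, a marker of stem-like T cells, was at 4.27, 2.29 and 3.86 RPKM against 1.59, 3.92 and 2.41 RPKM, overlapping (limma adjusted p = 0.627).

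Cytotoxic CD8 T cells kill with perforin, which opens pores, and granzymes, proteases that enter through them. Of 14 tested granule genes Prf1, the gene of perforin, fell and none rose, and the list median was -0.30. Prf1 (ENSMUSG00000037202) was at 4.43, 8.56 and 11.9 RPKM in Vav1CreTet2KO libraries, against 117, 44.3 and 65.1 RPKM in Tet2fl/fl libraries. The mean was 8.30 ± 3.75 RPKM in Vav1CreTet2KO cells and 75.6 ± 37.7 RPKM in Tet2fl/fl cells (SD, n = 3 each), and the highest Vav1CreTet2KO library lay well below the lowest Tet2fl/fl library (log2 fold change -3.02 ± 0.38 SE, adjusted p = 0.00800 by limma). No granzyme passed, and whether they differed from Prf1 was not tested. Gzmb was at 231, 323 and 130.1 RPKM in Vav1CreTet2KO libraries, against 151, 176 and 406 RPKM in Tet2fl/fl libraries, overlapping (log2 fold change -0.05 ± 0.43 SE, adjusted p = 0.963 by limma). Gzma was at 104, 84.7 and 23.3 RPKM against 75.0, 105 and 278 RPKM, also overlapping, with a high value in Tet2fl/fl replicate 3 (limma adjusted p = 0.314). Gzmk, a granzyme of early effector and memory cells, was at 0, 2.02 and 0.817 RPKM against 6.21, 5.53 and 11.3 RPKM without overlap (log2 fold change -2.24 ± 0.53 SE, adjusted p = 0.0585 by limma).

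Of 14 tested natural killer receptors and adaptors 2 rose and 1 fell. Klrk1, which encodes the activating receptor NKG2D, was at 34.8, 17.7 and 15.8 RPKM in Vav1CreTet2KO libraries, against 5.02, 5.61 and 8.39 RPKM in Tet2fl/fl libraries (log2 fold change 1.64 ± 0.37 SE, adjusted p = 0.0487 by limma). Tyrobp, an adaptor of natural killer and myeloid cells also known as DAP12, was at 130.4, 55.0 and 27.9 RPKM in Vav1CreTet2KO libraries, against 0.708, 3.43 and 6.56 RPKM in Tet2fl/fl libraries (log2 fold change 3.95 ± 0.76 SE, adjusted p = 0.0257 by limma). Klrb1b, an inhibitory receptor of natural killer cells, was at 0.323, 1.11 and 0.313 RPKM in Vav1CreTet2KO libraries, against 8.43, 4.09 and 2.39 RPKM in Tet2fl/fl libraries (log2 fold change -1.82 ± 0.40 SE, adjusted p = 0.0420 by limma). Paralogues of the Klr families can share reads, so single members are uncertain. Of 12 tested chemokine receptors 2 fell and 1 rose. Cx3cr1 (ENSMUSG00000052336), the fractalkine receptor of effector T cells, was at 1.26, 2.20 and 1.24 RPKM in Vav1CreTet2KO libraries, against 24.1, 12.2 and 14.2 RPKM in Tet2fl/fl libraries (log2 fold change -2.76 ± 0.40 SE, adjusted p = 0.00980 by limma). Ccr8, a receptor of tissue T cells, was at 0.938, 3.93 and 1.71 RPKM in Vav1CreTet2KO libraries, against 23.1, 16.8 and 12.5 RPKM in Tet2fl/fl libraries (log2 fold change -2.60 ± 0.40 SE, adjusted p = 0.0110 by limma). Ccr2, a receptor for inflammatory chemokines, was the riser at 16.03, 17.5 and 9.68 RPKM in Vav1CreTet2KO libraries, against 1.77, 2.02 and 1.87 RPKM in Tet2fl/fl libraries (log2 fold change 2.38 ± 0.51 SE, adjusted p = 0.0396 by limma). In all of these the groups stayed apart, and the Tet2fl/fl levels of Ccr2 lay within 1.77 to 2.02 RPKM. None of 5 tested chemokines passed, and Ccl1, a ligand of CCR8, had the lowest log2 fold change of the list, -3.86 with an adjusted limma p of 0.0802.

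Prf1 and Cx3cr1 among the falling genes, and Klf3 and Il7r among the rising genes, had a single promoter window each in the RefSeq table for GRCm38.p6. The windows are shown because TET2 acts on methylated CG dinucleotides, which are in capitals. They run 5′ to 3′ on the gene's strand, from 250 bases before to 50 bases after the start. Methylation was not measured in these libraries.
Prf1, chr10:61297586-61297885, plus strand: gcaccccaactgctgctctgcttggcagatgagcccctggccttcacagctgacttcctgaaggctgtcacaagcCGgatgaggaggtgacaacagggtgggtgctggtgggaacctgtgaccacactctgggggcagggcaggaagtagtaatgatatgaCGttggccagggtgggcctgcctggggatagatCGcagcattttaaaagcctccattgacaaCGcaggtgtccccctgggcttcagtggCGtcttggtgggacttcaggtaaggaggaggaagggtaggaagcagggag
Cx3cr1, chr9:120068247-120068546, minus strand: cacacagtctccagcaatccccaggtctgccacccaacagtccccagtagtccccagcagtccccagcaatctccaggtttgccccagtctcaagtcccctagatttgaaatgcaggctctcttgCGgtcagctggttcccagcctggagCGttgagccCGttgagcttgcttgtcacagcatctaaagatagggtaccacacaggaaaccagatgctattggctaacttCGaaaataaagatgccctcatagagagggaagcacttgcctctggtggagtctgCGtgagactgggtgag
Klf3, chr5:64803271-64803570, plus strand: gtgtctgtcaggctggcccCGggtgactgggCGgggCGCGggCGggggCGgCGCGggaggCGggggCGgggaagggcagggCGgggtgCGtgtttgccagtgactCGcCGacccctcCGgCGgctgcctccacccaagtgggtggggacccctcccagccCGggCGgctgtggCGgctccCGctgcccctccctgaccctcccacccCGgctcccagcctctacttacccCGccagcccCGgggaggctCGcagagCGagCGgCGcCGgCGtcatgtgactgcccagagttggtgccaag
Il7r, chr15:9529827-9530126, minus strand: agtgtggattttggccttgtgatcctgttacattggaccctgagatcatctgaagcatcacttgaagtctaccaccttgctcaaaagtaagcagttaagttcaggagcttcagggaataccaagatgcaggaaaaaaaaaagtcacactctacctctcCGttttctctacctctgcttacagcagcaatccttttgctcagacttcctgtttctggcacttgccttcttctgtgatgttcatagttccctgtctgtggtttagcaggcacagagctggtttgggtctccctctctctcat
The Klf3 window held 29 CG dinucleotides, and 12.9% of the 32851 windows of the table held as many or more. The windows of Prf1 and Cx3cr1 held 5 each, as many or more being in 62.0% of windows, and that of Il7r held 1 (94.6%). The falling and rising genes shown thus both included windows with few CG dinucleotides. Only 111 of the 149 called genes had a window, so no comparison over the called genes was made.

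Among 6 tested secreted cytokines none passed. Ifng, the gene of interferon gamma, was at 161, 107 and 57.0 RPKM against 163, 86.0 and 138 RPKM, overlapping (limma adjusted p = 0.782), and Csf2, the gene of GM-CSF, at 5.19, 3.16 and 0 RPKM against 35.1, 15.98 and 19.3 RPKM, without overlap (log2 fold change -2.97 ± 0.74 SE, adjusted p = 0.0682 by limma). Of 20 tested cytokine receptors 1 fell and 1 rose. Il1r2, a decoy receptor that binds interleukin 1 without signalling, was at 0.0444, 0.173 and 0 RPKM in Vav1CreTet2KO libraries, against 13.9, 12.8 and 5.84 RPKM in Tet2fl/fl libraries (log2 fold change -3.39 ± 0.46 SE, adjusted p = 0.00980 by limma). It was barely detected in the Vav1CreTet2KO libraries. The riser, Il7r, is described with the memory genes below. Il2rb, a signalling chain of the interleukin 2 and 15 receptors, was at 48.3, 76.8 and 42.7 RPKM against 163, 126 and 128 RPKM (log2 fold change -1.34 ± 0.33 SE, adjusted p = 0.0667 by limma).

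Of 18 tested genes of the T cell receptor complex and its proximal signalling 1 fell. Zap70, the kinase that binds the activated receptor, was at 19.0, 27.8 and 28.0 RPKM in Vav1CreTet2KO libraries, against 75.6, 44.6 and 71.4 RPKM in Tet2fl/fl libraries (log2 fold change -1.31 ± 0.27 SE, adjusted p = 0.0336 by limma). Each Vav1CreTet2KO level lay below each Tet2fl/fl level. Cd3e, a chain of the complex, was at 161, 199.6 and 148 RPKM against 298, 202 and 234 RPKM (log2 fold change -0.52 ± 0.26 SE, adjusted p = 0.333 by limma), and the signalling chain Cd247 had a log2 fold change of -0.58 with an adjusted limma p of 0.248. Feedback genes of signalling did not pass in any list, with 4 SOCS genes, 8 dual specificity phosphatases and 15 other attenuators tested. Their medians were -0.79, -0.62 and -0.81, and that of the phosphatases was -0.17 without Vav1CreTet2KO replicate 1. Cish, a brake on cytokine and receptor signalling, was at 3.17, 14.1 and 12.2 RPKM against 23.2, 26.6 and 30.9 RPKM (log2 fold change -1.56 ± 0.40 SE, adjusted p = 0.0776 by limma). Rgs16, a regulator of G protein signalling, had a log2 fold change of -3.02 with an adjusted limma p of 0.0795 and Dgkz, a kinase that removes diacylglycerol, of -1.30 with an adjusted limma p of 0.0595. Of 11 integrins and retention genes Itgav, which encodes the integrin alpha V chain, fell, at 2.52, 9.01 and 4.13 RPKM in Vav1CreTet2KO libraries, against 24.5, 19.9 and 23.1 RPKM in Tet2fl/fl libraries (log2 fold change -2.05 ± 0.39 SE, adjusted p = 0.0251 by limma).

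Among factors and receptors of memory and stem-like T cells, Klf3 and Il7r passed in limma, both higher in Vav1CreTet2KO cells. In edgeR neither passed (adjusted p = 0.0514 for Klf3 and 0.0612 for Il7r), and in voom Klf3 did not (adjusted p = 0.112). Of 12 tested stem-like and quiescence factors 1 rose and none fell, and the median was 0.75. The log2 fold change was positive in 10 of them, against 4249 of all 10224 tested genes. Klf3 (ENSMUSG00000029178), a repressor of the Krüppel-like family, was at 13.6, 6.79 and 16.2 RPKM in Vav1CreTet2KO libraries, against 1.77, 4.22 and 2.17 RPKM in Tet2fl/fl libraries (log2 fold change 1.80 ± 0.37 SE, adjusted p = 0.0317 by limma). Il7r (ENSMUSG00000003882), the receptor that keeps memory T cells alive, was at 46.4, 62.0 and 89.0 RPKM in Vav1CreTet2KO libraries, against 18.1, 29.1 and 19.5 RPKM in Tet2fl/fl libraries (log2 fold change 1.51 ± 0.31 SE, adjusted p = 0.0314 by limma). In both genes the groups did not overlap, with the highest Vav1CreTet2KO level in replicate 3. Tcf7, which encodes TCF-1, the defining factor of stem-like CD8 cells, was at 48.7, 54.9 and 148 RPKM in Vav1CreTet2KO libraries, against 25.6, 44.8 and 34.6 RPKM in Tet2fl/fl libraries. Its Vav1CreTet2KO levels were all above the Tet2fl/fl levels, with replicate 3 far above the rest (log2 fold change 1.08 ± 0.46 SE, adjusted p = 0.247 by limma). Lef1, its relative, was at 12.0, 15.4 and 40.0 RPKM against 10.1, 17.7 and 8.08 RPKM, overlapping (limma adjusted p = 0.442). Foxp1, a factor of naive T cell quiescence, had a log2 fold change of 0.75 with an adjusted limma p of 0.119 and Satb1, a chromatin organiser, of 0.99 with an adjusted limma p of 0.207.

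Homing genes did not pass in any of 7 tested members. Ccr7, the chemokine receptor of lymph node entry, was at 36.7, 8.54 and 32.6 RPKM against 23.3, 35.9 and 15.8 RPKM, with replicate 2 of Vav1CreTet2KO the lowest of all (limma adjusted p = 0.936). Itgb7, an integrin chain of gut homing, had a log2 fold change of 0.61 with an adjusted limma p of 0.197. In the Ly6 family 2 of 4 tested members rose. Ly6c2, a surface marker of memory and interferon-exposed CD8 cells, was at 110.4, 39.1 and 74.5 RPKM in Vav1CreTet2KO libraries, against 10.1, 7.66 and 17.7 RPKM in Tet2fl/fl libraries (log2 fold change 2.52 ± 0.44 SE, adjusted p = 0.0160 by limma). Ly6d, a marker of early B and plasmacytoid dendritic lineages, was at 17.6, 10.1 and 4.93 RPKM in Vav1CreTet2KO libraries and listed at 0 in every Tet2fl/fl library (limma adjusted p = 0.0288). Ly6a (Sca-1) had a log2 fold change of 2.04 with an adjusted limma p of 0.0577.

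**Figure D3:**
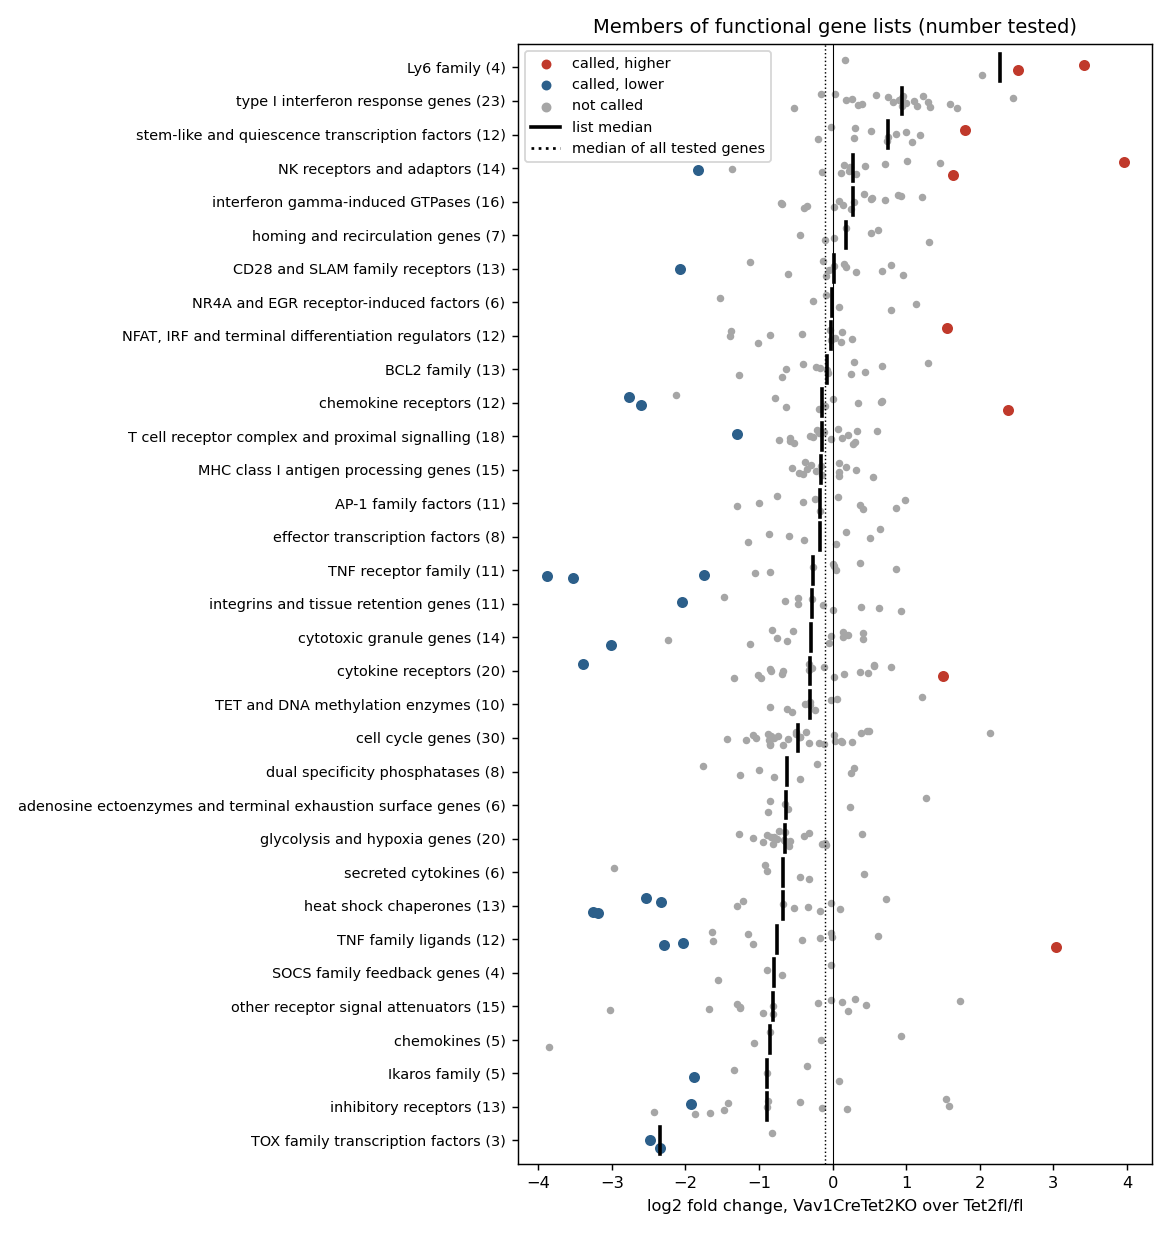
Log2 fold change of Vav1CreTet2KO over Tet2fl/fl for each tested member of the 33 functional lists, 1 row per list ordered by its median (black bar), with the number of tested members in brackets. Called members are coloured, and the dotted line marks the median of all tested genes, -0.11; the TOX family lies lowest and the Ly6 family highest.

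Of 23 tested type I interferon response genes none passed. The log2 fold change was positive in 21 of them, against 4249 of all 10224 tested genes. In 8 of them all Vav1CreTet2KO levels lay above all Tet2fl/fl levels, against 6.92% of all tested genes. The list median was 0.94, 1.40 in edgeR and 0.54 without Vav1CreTet2KO replicate 1. None passed in edgeR, and DESeq2 called 7 higher. Mx1, an antiviral GTPase, was at 10.2, 8.35 and 6.27 RPKM in Vav1CreTet2KO libraries, against 1.61, 2.11 and 2.39 RPKM in Tet2fl/fl libraries (log2 fold change 1.60 ± 0.37 SE, adjusted p = 0.0539 by limma). Bst2 (tetherin), which plasmacytoid dendritic cells also carry, was at 126, 27.6 and 21.8 RPKM against 5.37, 6.43 and 9.85 RPKM (log2 fold change 2.44 ± 0.59 SE, adjusted p = 0.0637 by limma), and Ifit1 at 6.58, 6.28 and 2.99 RPKM against 1.02, 1.37 and 1.98 RPKM (limma adjusted p = 0.0722). Replicate 1 was the highest Vav1CreTet2KO library in each of these genes. None of 16 GTPases induced by interferon gamma and none of 15 MHC class I processing genes passed, with medians of 0.27 and -0.15. Without Vav1CreTet2KO replicate 1 the median of the GTPases was 0.08.

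Heat shock chaperones, which refold proteins after stress, held 4 falling genes among 13 tested, and none rose. Hspa1a, an inducible HSP70 gene, was at 25.8, 58.6 and 256 RPKM in Vav1CreTet2KO libraries, against 822, 724 and 525 RPKM in Tet2fl/fl libraries (log2 fold change -3.19 ± 0.59 SE, adjusted p = 0.0218 by limma). Its near-identical neighbour Hspa1b was at 34.6, 117 and 437 RPKM in Vav1CreTet2KO libraries, against 1434, 1202 and 929.9 RPKM in Tet2fl/fl libraries (log2 fold change -3.26 ± 0.65 SE, adjusted p = 0.0288 by limma), and reads may be shared between the pair. Bag3, a co-chaperone of HSP70, was at 3.26, 7.39 and 2.78 RPKM in Vav1CreTet2KO libraries, against 51.2, 27.9 and 16.7 RPKM in Tet2fl/fl libraries (log2 fold change -2.54 ± 0.39 SE, adjusted p = 0.0113 by limma). Hspb1, a small heat shock protein, was at 0, 0 and 0.0847 RPKM against 6.41, 8.34 and 0.990 RPKM (log2 fold change -2.33 ± 0.51 SE, adjusted p = 0.0420 by limma). Hsph1 (HSP110) had a log2 fold change of -1.29 with an adjusted limma p of 0.0695, and Dnajb1 (HSP40) of -1.22 with an adjusted limma p of 0.0818. Vav1CreTet2KO replicate 3 held the highest and replicate 1 the lowest Hspa1a level of its group.

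No member of the cell cycle list (30 tested, median -0.47) or the glycolysis and hypoxia list (20 tested, median -0.65) passed. Mki67, a marker of cycling cells, was at 34.9, 40.6 and 8.15 RPKM against 46.2, 33.2 and 48.3 RPKM, with replicate 3 of Vav1CreTet2KO the lowest (limma adjusted p = 0.382). Ccnd1 had a log2 fold change of 2.14 with an adjusted limma p of 0.0932 and Plk1 of -1.44 with an adjusted limma p of 0.103. Of the glycolysis genes 19 of 20 had a negative log2 fold change, against 5975 of all 10224 tested genes. In 7 of them all Vav1CreTet2KO levels lay below all Tet2fl/fl levels, against 12.9% of all tested genes, led by Pgam1 (-1.08, adjusted limma p 0.124). Of 13 BCL2 family genes none passed, and Bcl2l1 had a log2 fold change of -1.27 with an adjusted limma p of 0.102. Of 10 TET and DNA methylation enzymes none passed, and Idh2 had one of 1.21 with an adjusted limma p of 0.0667.

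Of the 46 rising genes, 7 were on the lists of MHC class II, type 1 dendritic and plasmacytoid dendritic genes, which mark antigen-presenting cells. All 7 MHC class II genes had every Vav1CreTet2KO level above every Tet2fl/fl level, against 6.92% of all tested genes, and 4 of the 7 rose. On recovered reads DESeq2 called 6 of them higher and edgeR none. H2-Ab1 was at 1256, 428 and 289 RPKM in Vav1CreTet2KO libraries, against 19.8, 12.2 and 114 RPKM in Tet2fl/fl libraries (log2 fold change 4.09 ± 0.84 SE, adjusted p = 0.0338 by limma). H2-Aa was at 419, 249 and 152 RPKM in Vav1CreTet2KO libraries, against 12.9, 7.47 and 53.1 RPKM in Tet2fl/fl libraries (log2 fold change 3.77 ± 0.74 SE, adjusted p = 0.0279 by limma). H2-DMb1, which helps load peptides, was at 29.3, 27.0 and 9.33 RPKM in Vav1CreTet2KO libraries, against 0, 0.369 and 1.82 RPKM in Tet2fl/fl libraries (log2 fold change 3.72 ± 0.63 SE, adjusted p = 0.0160 by limma), and H2-Eb1 had a log2 fold change of 3.34 with an adjusted limma p of 0.0487. Replicate 1 was the highest Vav1CreTet2KO library in each, and replicate 3 the highest Tet2fl/fl library. Of 7 markers of type 1 conventional dendritic cells 2 rose. Clec9a, a receptor for dead cells, was at 10.4, 15.0 and 9.91 RPKM in Vav1CreTet2KO libraries, against 0.287, 0.302 and 2.56 RPKM in Tet2fl/fl libraries (log2 fold change 2.80 ± 0.61 SE, adjusted p = 0.0422 by limma). Flt3, the receptor of the dendritic cell growth factor, was at 17.3, 17.0 and 8.71 RPKM in Vav1CreTet2KO libraries, against 0.920, 0.591 and 2.65 RPKM in Tet2fl/fl libraries (log2 fold change 2.72 ± 0.54 SE, adjusted p = 0.0279 by limma). Xcr1, another defining marker, was at 2.49, 12.0 and 6.13 RPKM against 0.385, 0.786 and 3.23 RPKM, with replicate 1 of Vav1CreTet2KO inside the Tet2fl/fl range (limma adjusted p = 0.224). Of 7 plasmacytoid dendritic markers 1 rose, Cox6a2, at 11.9, 10.2 and 3.21 RPKM in Vav1CreTet2KO libraries and listed at 0 in every Tet2fl/fl library (limma adjusted p = 0.0251). Siglech, their defining receptor, was at 25.1, 38.6 and 14.6 RPKM against 1.36, 0.804 and 5.64 RPKM (log2 fold change 3.05 ± 0.70 SE, adjusted p = 0.0539 by limma), while Pacsin1 of the same list had a log2 fold change of -1.30 with an adjusted limma p of 0.0787.

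Summed over the lists, MHC class II genes stood at 2739, 1555 and 995 RPKM in Vav1CreTet2KO libraries, against 109.8, 61.3 and 396 RPKM in Tet2fl/fl libraries. Type 1 dendritic markers stood at 113, 156 and 94.9 RPKM against 6.88, 5.83 and 52.8 RPKM, and plasmacytoid markers at 75.6, 88.1 and 32.4 RPKM against 26.6, 24.9 and 31.4 RPKM. These sums did not overlap between the groups. Other sums were also higher without overlap. B cell markers stood at 11.4, 22.3 and 21.7 RPKM in Vav1CreTet2KO libraries, against 3.50, 8.86 and 8.89 RPKM in Tet2fl/fl libraries. Type 2 dendritic markers stood at 18.9, 24.3 and 15.2 RPKM against 9.21, 6.14 and 12.9 RPKM, and endothelial and stromal markers at 9.38, 11.7 and 12.5 RPKM against 5.90, 5.41 and 5.38 RPKM. No gene of these 3 lists passed. Macrophage markers overlapped at 47.8, 21.7 and 16.7 RPKM against 21.4, 10.4 and 8.67 RPKM, and Lyz2 reached no more than 9.33 RPKM in the 6 libraries. The ratio of the group means of these sums was 2.13, against 2.37 for plasmacytoid and 2.07 for type 2 dendritic markers. T cell receptor chains overlapped at 1147, 781 and 556 RPKM against 914, 607 and 839 RPKM. Neutrophil markers came to no more than 3.38 RPKM and hepatocyte markers to no more than 3.00 RPKM in any of them. In bulk libraries more cells of a type and more RNA per cell cannot be told apart, so these values do not say whether antigen-presenting cells were present in the sorts or T cells carried the transcripts. Their part in the other rising genes was not tested. Foxp3, the factor of regulatory T cells, was at 0.852, 0.818 and 0.477 RPKM against 2.23, 4.04 and 3.21 RPKM (limma adjusted p = 0.0751), lower in every Vav1CreTet2KO library. Without Vav1CreTet2KO replicate 1 the log2 fold change of H2-Ab1 was 3.48 and no gene of these lists passed (smallest adjusted p among those named 0.0551).

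**Figure D4:**
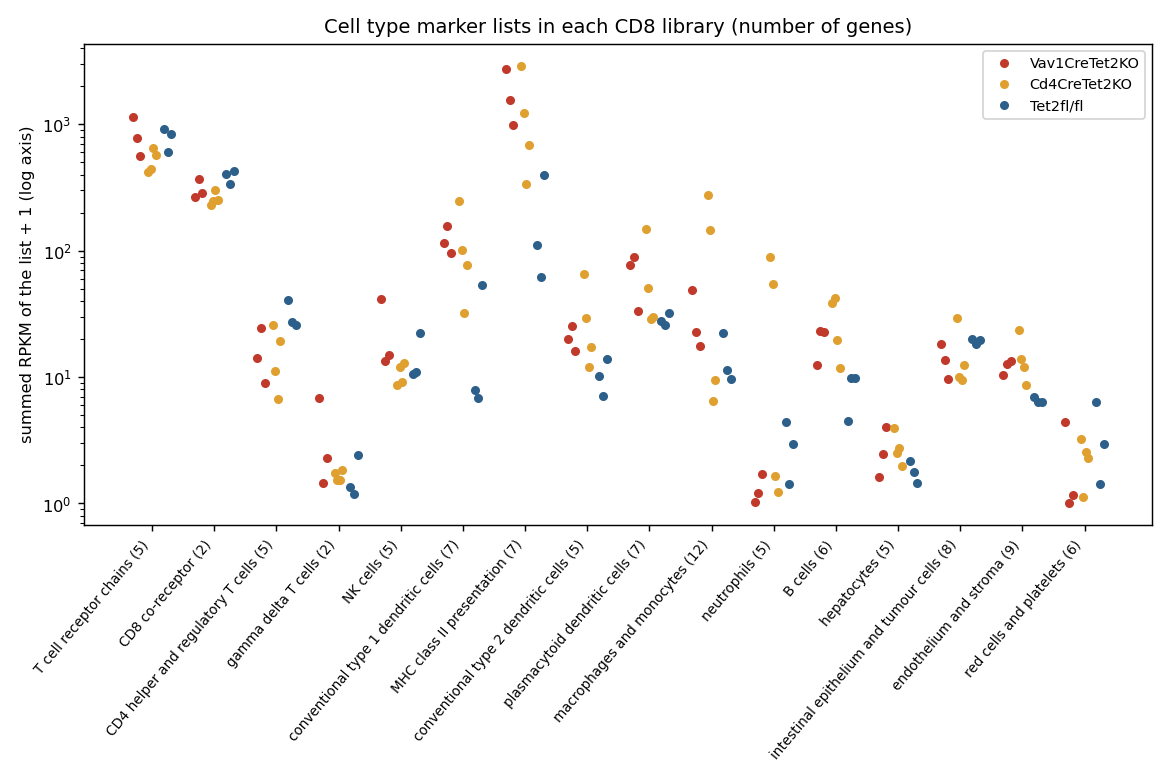
Summed RPKM + 1 of each cell type marker list on a log axis, 1 point per CD8 library, with Vav1CreTet2KO left of Cd4CreTet2KO and Tet2fl/fl within each list and the number of genes in brackets. MHC class II sums lie between 995 and 2739 RPKM in Vav1CreTet2KO, above the 61.3 to 396 RPKM of Tet2fl/fl, and macrophage sums are high in 2 Cd4CreTet2KO libraries only.

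The falling genes of largest change outside these lists were led by secreted and neuronal-type products. Penk, the precursor of the opioid enkephalins, was at 5.63, 34.9 and 0.748 RPKM in Vav1CreTet2KO libraries, against 271, 197 and 121 RPKM in Tet2fl/fl libraries (log2 fold change -4.65 ± 0.99 SE, adjusted p = 0.0403 by limma). Nrgn, a calmodulin-binding protein known from neurons, was at 5.49, 21.3 and 0.961 RPKM in Vav1CreTet2KO libraries, against 126, 56.8 and 59.6 RPKM in Tet2fl/fl libraries (log2 fold change -3.54 ± 0.76 SE, adjusted p = 0.0406 by limma). Tff1, a secreted trefoil peptide, was at 0, 3.05 and 0 RPKM in Vav1CreTet2KO libraries, against 36.9, 13.1 and 8.97 RPKM in Tet2fl/fl libraries (log2 fold change -3.45 ± 0.63 SE, adjusted p = 0.0192 by limma). Each of these was highest in Tet2fl/fl replicate 1, and the Vav1CreTet2KO libraries spread widely, with replicate 2 the highest. Mrc2, a collagen receptor, was at 0, 0.998 and 0.0575 RPKM in Vav1CreTet2KO libraries, against 14.3, 8.74 and 11.5 RPKM in Tet2fl/fl libraries (log2 fold change -3.26 ± 0.40 SE, adjusted p = 0.00800 by limma), and Igfbp7, a secreted binding protein, had a log2 fold change of -3.24 with an adjusted limma p of 0.0175. Receptors for peptide hormones were among them: Vipr2, a receptor of vasoactive intestinal peptide, was at 2.85, 1.53 and 0.177 RPKM against 15.8, 22.4 and 13.3 RPKM (limma adjusted p = 0.0109) and Glp1r, the receptor of GLP-1, at 0, 0.824 and 0.0451 RPKM against 7.82, 4.15 and 10.6 RPKM (limma adjusted p = 0.00980). The remaining genes by the same rule were Cib2 (-3.23), Fcrl1 (-3.09), Lad1 (-2.93) and Nrn1 (-2.66), given as log2 fold changes, with limma adjusted p from 0.0113 to 0.0387. Idi2, an enzyme of isoprenoid synthesis, was listed at 0 in all Vav1CreTet2KO libraries and at 7.26, 6.33 and 2.94 RPKM in Tet2fl/fl libraries (limma adjusted p = 0.00800).

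The rising genes of largest change outside the lists were largely known from myeloid and dendritic cells. Pld4, an endolysosomal nuclease of plasmacytoid dendritic cells, was at 77.1, 49.4 and 14.1 RPKM in Vav1CreTet2KO libraries, against 3.19, 0.915 and 2.87 RPKM in Tet2fl/fl libraries (log2 fold change 3.64 ± 0.73 SE, adjusted p = 0.0297 by limma). Mpeg1, which encodes perforin-2 of phagocytes, was at 81.3, 89.0 and 51.9 RPKM in Vav1CreTet2KO libraries, against 5.04, 3.51 and 16.4 RPKM in Tet2fl/fl libraries (log2 fold change 3.23 ± 0.69 SE, adjusted p = 0.0396 by limma). Klra17 was at 15.3, 15.3 and 5.35 RPKM in Vav1CreTet2KO libraries and listed at 0 in every Tet2fl/fl library (limma adjusted p = 0.0160). In the first 2 of these Tet2fl/fl levels never reached the lowest Vav1CreTet2KO level. Further genes were Ifi205 (3.59), Plbd1 (3.52), Rnase6 (3.35), Alox5ap (3.23), Nucb2 (2.92) and Fgd2 (2.65), given as log2 fold changes, with limma adjusted p from 0.0160 to 0.0475. Ccnb1ip1, a gene of meiotic crossing over, stood out in level, at 504, 132 and 169 RPKM in Vav1CreTet2KO libraries, against 18.2, 13.9 and 41.8 RPKM in Tet2fl/fl libraries (log2 fold change 3.29 ± 0.52 SE, adjusted p = 0.0113 by limma).

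Vav1CreTet2KO and Cd4CreTet2KO cells were then compared directly. The Tet2fl/fl libraries did not enter this difference, but they entered the filter on low values and the estimate of the spread. Here limma called 0 of 10224 genes (0%), with 649 (6.35%) at an unadjusted p under 0.05 and a smallest adjusted p of 0.138. edgeR and voom called none either, with 843 and 845 genes at an unadjusted p under 0.05. DESeq2 called 94 of the 17981 genes with a fold change (0.523%). In RPKM, Tox stood at 2.60, 10.2 and 6.86 in Vav1CreTet2KO cells and at 8.52, 5.36, 5.70 and 6.61 in Cd4CreTet2KO cells, a log2 difference of -0.13 (95% interval -0.90 to 0.64, limma adjusted p = 0.922). Perforin (Prf1), in RPKM, stood at 4.43, 8.56 and 11.9 in Vav1CreTet2KO cells and at 14.5, 11.7, 8.88 and 10.8 in Cd4CreTet2KO cells, a difference of -0.49 (95% interval -1.27 to 0.28, limma adjusted p = 0.741). Il7r RPKM stood at 46.4, 62.0 and 89.0 in Vav1CreTet2KO cells and at 34.4, 59.8, 43.5 and 36.7 in Cd4CreTet2KO cells, a difference of 0.57 (95% interval -0.05 to 1.19, limma adjusted p = 0.721). These intervals include 0, which does not show that the knockouts act alike. Tnfrsf9 RPKM stood at 1.57, 5.51 and 1.69 in Vav1CreTet2KO cells and at 15.2, 2.60, 6.85 and 11.3 in Cd4CreTet2KO cells, a difference of -1.28 (95% interval -2.32 to -0.25, limma adjusted p = 0.721). Here all but 1 Cd4CreTet2KO level lay above the Vav1CreTet2KO levels, and the unadjusted interval excludes 0. Cd40lg RPKM stood at 12.5, 10.9 and 7.82 in Vav1CreTet2KO cells and at 0.647, 2.34, 0.914 and 3.30 in Cd4CreTet2KO cells, with every Vav1CreTet2KO level above, and a difference of 2.12 (95% interval 1.24 to 2.99, limma adjusted p = 0.371). Ctla4 RPKM stood at 119, 132 and 29.7 in Vav1CreTet2KO cells and at 26.7, 10.1, 22.6 and 64.8 in Cd4CreTet2KO cells, a difference of 1.59 (95% interval 0.35 to 2.82, limma adjusted p = 0.721). H2-Ab1 RPKM stood at 1256, 428 and 289 in Vav1CreTet2KO cells and at 817, 349, 101 and 212 in Cd4CreTet2KO cells, overlapping, a difference of 0.94 (95% interval -0.77 to 2.65, limma adjusted p = 0.764). Macrophage marker sums were 274, 144, 5.44 and 8.48 RPKM in the Cd4CreTet2KO libraries, so replicates 1 and 2 of that group carried transcripts that the Vav1CreTet2KO libraries held at low levels.

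The use of T cell receptor beta variable segments gives a coarse view of clonal breadth. Over 22 Trbv segments the effective number, the exponential of the Shannon entropy of their RPKM shares, was 7.22, 9.60 and 12.0 in Vav1CreTet2KO libraries and 9.53, 8.78 and 12.2 in Tet2fl/fl libraries. The means were 9.60 ± 2.38 in Vav1CreTet2KO and 10.2 ± 1.82 in Tet2fl/fl libraries (SD, n = 3 each; exact two-sided permutation p = 0.8, where 0.1 is the smallest this design allows). The leading segment took 34.8%, 30.3% and 22.8% in Vav1CreTet2KO libraries, each time Trbv3. It took 29.3% (Trbv13-1), 37.7% (Trbv14) and 16.4% (Trbv3) in Tet2fl/fl libraries (exact two-sided permutation p = 0.9). Neither measure differed beyond the spread between libraries, and short segments that resemble one another can share reads.

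How many genes were called moved with the libraries and tests used. The number called ranged from 0 without Tet2fl/fl replicate 1 to 234 without Vav1CreTet2KO replicate 2, apart from DESeq2 with 932. Without Vav1CreTet2KO replicate 1 both TOX factors, Prf1, Cx3cr1, Ccr8, Cd200r1, Crtam, Tnfrsf9, Tnfrsf18, Il1r2, Bag3, Hspa1a and Hspa1b still fell, and Cd40lg, Il7r and Ccnb1ip1 still rose. All other called members of the functional lists lost their call in that setting. These were Tnfrsf4, Tnfsf4, Tnfsf9, Ikzf2, Klrb1b, Zap70, Itgav and Hspb1 among the falling genes and Klf3, Myb, Ly6c2, Ly6d, Klrk1, Tyrobp and Ccr2 among the rising genes, with adjusted limma p from 0.0540 (Ly6c2) to 0.119 (Tnfrsf4). In edgeR the called list members that did not pass were Tnfrsf4, Tnfsf4, Tnfsf9, Ikzf2, Klrb1b, Zap70, Hspa1a, Hspa1b, Hspb1, Cd40lg, Il7r, Klf3 and Tyrobp, with adjusted p from 0.0514 (Klf3) to 0.339 (Tnfrsf4). Called list members that did not pass in voom included Klf3, Myb, Ly6c2, Ly6d, Cd40lg, Ccr8, Ikzf2 and Klrb1b. Medians of 6 functional lists were below 0 on RPKM and above 0 in edgeR. In edgeR they were 0.09 for TNF receptors, 0.15 for NFAT and IRF regulators, 0.14 for the NR4A and EGR list, 0.05 for AP-1 factors, 0.02 for chemokine receptors and 0.05 for the BCL2 family.

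**Figure D5:**
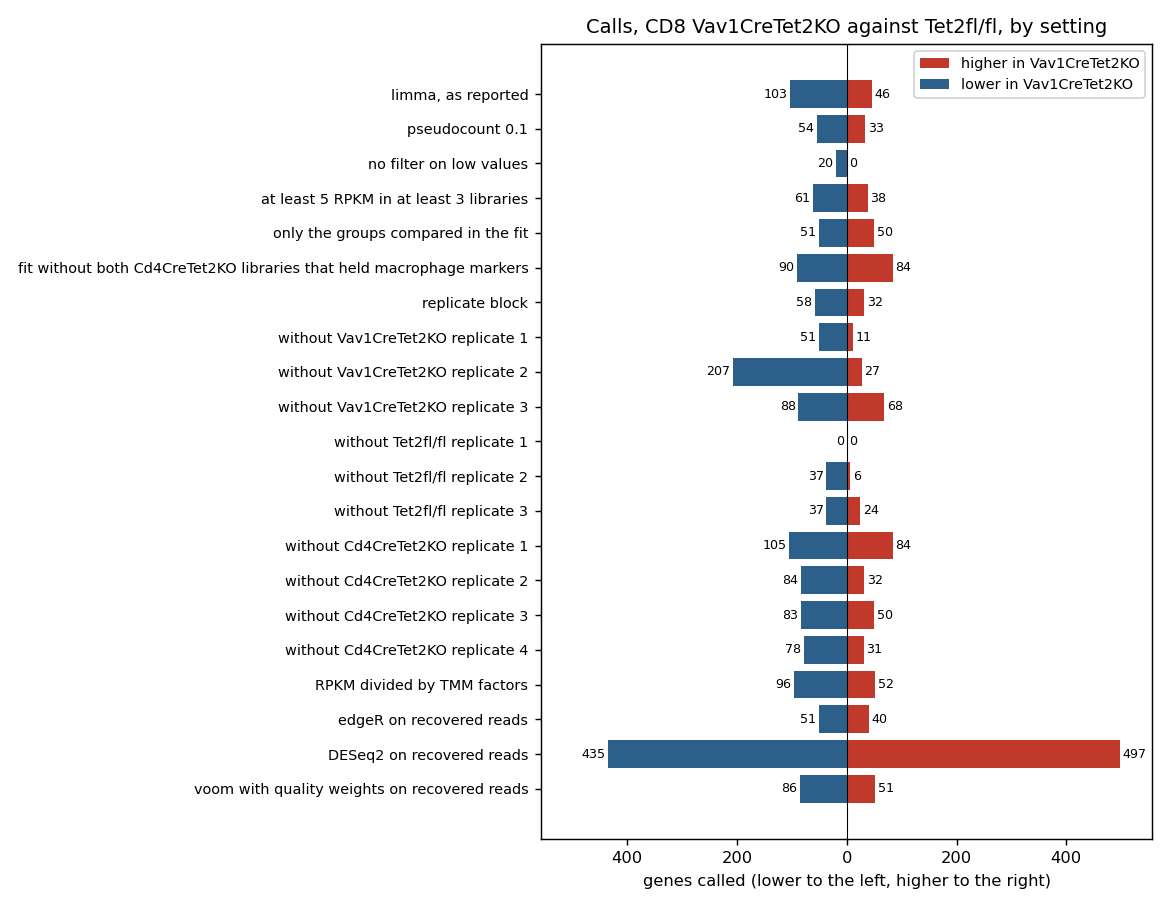
Number of genes called at an adjusted p of 0.05 in each setting, with genes lower in Vav1CreTet2KO drawn to the left and genes higher in Vav1CreTet2KO to the right. The first row holds the 103 lower and 46 higher genes reported, the DESeq2 row is the longest, and the row without Tet2fl/fl replicate 1 is empty.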

How the data were processed

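The authors deposited RPKM values per gene for 10 CD8 libraries, made from stranded total RNA libraries of flow-sorted cells, per the labels' protocols. A second deposited table, of CD4 cells, holds read counts beside RPKM, per the file headers. Its ratio of count to RPKM gave a length for 20159 of 25639 genes, 10212 of the 10224 tested among them, and so reads of these genes in the CD8 libraries, of which 100% of values came out whole within 0.01. The submitters' processing notes name the builds GRCm38 and mm10; the sources used here name no aligner or counter. Scripts used 28 per-sample columns and left out 18.

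Genes that reached 1 RPKM in 3 or more CD8 libraries were fitted with limma 3.58.1 in R 4.3.3, with trend, on log2(RPKM + 1), over all 10 CD8 libraries with genotype as the only term. Deposited fold changes and p-values were not used. The limma p-values were adjusted over all tested genes at 0.05, and DESeq2 applied its default filter on low counts before adjusting. edgeR 4.0.16 and DESeq2 1.42.0 were run on the recovered reads, and each was tested on simulated data. Other settings were a pseudocount of 0.1, no filter, at least 5 RPKM, fewer groups, a replicate block, TMM scaling and leaving out each library. The genes named were called list members, up to 3 further members by smallest p, an invariable set of exhaustion and memory genes, and the 20 called genes of largest change each way. Results for 2 named genes are not reported here. Members and lists were chosen with earlier results of these data known.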

Additional observations from a re-analysis of the deposited data

How the results depend on the processing

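The number of genes called between Vav1CreTet2KO and Tet2fl/fl was 149 as reported. It was 87 with a pseudocount of 0.1 and 99 with at least 5 RPKM in at least 3 libraries. It was 91 in edgeR and 932 in DESeq2. Without a filter on low values 20 of 19552 genes were called, 0 higher and 20 lower, with 12 of them among the 149. None of the rising genes among the 149 was thus called in that setting. Leaving out 1 library gave 0 calls (without Tet2fl/fl replicate 1) to 234 calls (without Vav1CreTet2KO replicate 2), with 62 without Vav1CreTet2KO replicate 1, and 43 and 61 without Tet2fl/fl replicates 2 and 3. Leaving out a library of either group compares fewer samples. The cause of the shifts was not tested. With the replicate number as a block 90 genes were called, 32 higher and 58 lower. Same-numbered libraries deviated together by no more than a correlation of 0.0651, and differently numbered ones by up to 0.239. The numbers thus showed no sign of pairing, which does not exclude a pairing. Between the knockouts, the number called was 2 with only those groups in the fit, 94 in DESeq2 and 0 to 1 without 1 library. The Trbv difference in effective number ranged from -1.78 to 0.61 without 1 library, and it was above 0 without Vav1CreTet2KO replicate 1 (0.61) and without Tet2fl/fl replicate 3 (0.45). Uncalled genes that changed sign in log2 fold change were Ccr7 (0.18 in edgeR, 0.19 in DESeq2 and -0.46 to 0.53 without 1 library) and Gzmb (0.047 with TMM scaling, 0.32 in voom and -0.35 to 0.38 without 1 library). Without 1 library, Ctla4 ranged from -0.18 to 0.88, Nr4a2 from -0.27 to 0.70, Tbx21 from -0.20 to 0.27 and Ifng from -0.67 to 0.072. The 3 libraries a group limit precision, and intervals from recovered reads would cover counting error only.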

Other observations

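Several further genes among the 149 called were chosen after their values were seen, and none belongs to a list described above. Ddit4, an inhibitor of mTORC1 signalling, was at 2.90, 3.36 and 2.69 RPKM in Vav1CreTet2KO libraries, against 16.2, 18.9 and 13.4 RPKM in Tet2fl/fl libraries (log2 fold change -2.10 ± 0.25 SE, adjusted p = 0.00800 by limma). Its levels were close together within each group. Gadd45g, a growth arrest gene, was at 4.00, 9.30 and 3.26 RPKM in Vav1CreTet2KO libraries, against 35.0, 26.4 and 28.1 RPKM in Tet2fl/fl libraries (log2 fold change -2.34 ± 0.33 SE, adjusted p = 0.00980 by limma). Cdk6, a kinase of the G1 phase, was at 2.07, 6.57 and 3.28 RPKM in Vav1CreTet2KO libraries, against 22.7, 14.5 and 20.5 RPKM in Tet2fl/fl libraries (log2 fold change -2.11 ± 0.34 SE, adjusted p = 0.0114 by limma). Each of these lay below every Tet2fl/fl library in every Vav1CreTet2KO library. Cdkn2a, a cell cycle inhibitor locus, was listed at 0 in all Vav1CreTet2KO libraries and at 1.11, 3.98 and 1.80 RPKM in Tet2fl/fl libraries (limma adjusted p = 0.0407).

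Neb, which encodes the muscle protein nebulin, was at 1.46, 1.34 and 0.282 RPKM in Vav1CreTet2KO libraries, against 10.1, 11.2 and 7.56 RPKM in Tet2fl/fl libraries (log2 fold change -2.43 ± 0.32 SE, adjusted p = 0.00980 by limma). Ttn, which encodes titin, was at 0.0542, 0.0642 and 0.0383 RPKM in Vav1CreTet2KO libraries, against 2.41, 2.90 and 1.82 RPKM in Tet2fl/fl libraries (log2 fold change -1.67 ± 0.29 SE, adjusted p = 0.0160 by limma). Axl, a receptor tyrosine kinase, was at 2.11, 2.36 and 1.41 RPKM in Vav1CreTet2KO libraries, against 20.2, 15.2 and 10.8 RPKM in Tet2fl/fl libraries (log2 fold change -2.44 ± 0.37 SE, adjusted p = 0.0107 by limma), and Fkbp5, a co-chaperone of the glucocorticoid receptor, at 6.38, 5.74 and 3.58 RPKM against 16.4, 19.5 and 11.7 RPKM (log2 fold change -1.44 ± 0.27 SE, adjusted p = 0.0234 by limma). None of these overlapped between the groups. Epsti1, an interferon-induced gene, was the riser at 234, 183.8 and 113 RPKM in Vav1CreTet2KO libraries, against 36.7, 48.0 and 62.1 RPKM in Tet2fl/fl libraries (log2 fold change 1.80 ± 0.32 SE, adjusted p = 0.0160 by limma).

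Of the 46 rising genes, 34 (73.9%) were highest in replicate 1 among the Vav1CreTet2KO libraries, against 38.7% of all tested genes. Of the 103 falling genes, 52 (50.5%) were lowest in it, against 39.4% of all tested genes. Among the Tet2fl/fl libraries, 65 of the 103 falling genes were highest in replicate 1, 16 in replicate 2 and 22 in replicate 3. The share over all tested genes was not counted for these. Across the 4 Cd4CreTet2KO libraries, 32 of the 46 rising genes (69.6%) were highest in replicate 1, against 46.6% of the falling genes and 45.8% of all tested genes. Replicate 1 held the most macrophage and MHC class II transcripts of that group. MHC class II genes are themselves among the 46, so the count is not independent of that trait. The count was chosen after the data were seen, and the part of such transcripts in the rising calls was not tested.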
